A study of Mus musculus with 6 samples.

Results

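The 38 genes described here are immediate early genes and genes of the stress response to tissue dissociation. They were chosen by name, as 38 of the 31054 features of the deposited single-cell matrix, and all 38 were found. By role, 8 encode AP-1 subunits and related bZIP factors, 7 encode EGR, KLF and nuclear receptor transcription factors, 7 act in feedback and growth arrest, 3 restrain or tune NF-kB, 5 are heat shock chaperones, and 8 are other early response genes.

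The study profiled embryonic osteoclast precursors of the mouse by droplet-based 3-prime RNA sequencing (10x Genomics). The labels give 3 groups of 2 samples. The first is Cx3cr1CreER; R26tdTomato embryos with 4-hydroxytamoxifen at E9.5, the second is Csf1r-Mer-iCre-Mer; Csf1r-EGFP; R26tdTomato embryos with it at E8.5, and the third is total bone marrow of wildtype C57BL/6 mice at 2 months without the drug. Cell suspensions of entire embryos at E14.5 were the source, from which cells of the macrophage and monocyte lineage were taken. Both embryonic groups carry the inducible tdTomato reporter, which in each line depends on Cre under the Cx3cr1 or the Csf1r promoter, and the second group carries a Csf1r-EGFP transgene as well. The deposited matrix is named for Cx3cr1 and Csf1r and not for bone marrow. It joins 4 libraries that differ only in a number from 1 to 4 at the end of the barcode. That number matches no sample label, so no comparison between genotypes was possible, each library is given on its own, and no difference was tested.

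Immediate early genes are transcribed within minutes of a stimulus, without new protein synthesis, by factors already present in the cell. FOS and JUN proteins pair to form AP-1, and many of the same stimuli induce proteins that end the response, such as the MAP kinase phosphatase DUSP1, the mRNA-destabilising protein ZFP36 and the NF-kB inhibitor NFKBIA. Warm enzymatic dissociation of tissue is known to induce these genes and heat shock genes, and macrophages, which also use them in activation, are among the cells where this is often seen.

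Libraries 1 to 4 held 9851, 7750, 8058 and 13389 barcodes, of which 8369, 7063, 7196 and 11959 passed the filters on depth, genes and mitochondrial share, with median depths between 13077 and 14956.5 UMIs. Between 85 and 206 barcode sequences were shared by any pair of libraries. Cells were classed by gates of 6 marker genes, none of them a member, and 15 classes held at least 50 cells. In 12 of them all 6 markers were highest in their own class, which the gates on these same markers favour by design. The exceptions were the macrophage and granulocyte-monocyte progenitor gates, with 5 of 6 each, and the monocyte gate, with 2 of 6: Ccr2 (504 CPM) and Ms4a4c (283 CPM) were highest there, while Ly6c2 and Plac8 were higher in neutrophil-gated and progenitor-gated cells and Chil3 was almost absent at 0.0682 CPM. For these cells the name monocyte-gated stands for the gate alone. A further 3586 cells passed several gates and 8215 passed none, and both sets were left out of the classes.

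Levels are given in CPM, the UMIs of a gene scaled to 1000000 UMIs of its class, from 3-prime counts that need no correction for gene length. Differences are on the log2(CPM + 10) scale, which understates the difference of low genes, and a difference is counted when it reaches 2-fold on that scale. Intervals are exact Poisson 95% intervals and cover counting error only.

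The RefSeq promoter windows of 5 members are shown here. Most members were high in the same macrophage-gated cells, and the heat shock genes followed them less or not at all. Among the heat shock genes, Dnajb1 still rose with the others in every library, and Hspa1a in some libraries only. Dusp1, Nfkbia, Zfp36 and Tnfaip3 are members high in the same cells, and Hsph1 is a heat shock gene that was not. Each window runs from 250 bases before the start of the transcript to 50 bases after it on the GRCm38.p6 assembly, and a window was found for 31 of the 38 members. Capitals mark the motifs searched on both strands: the CArG box of serum response factor, TGACGTCA (the palindromic CRE), TGANTCA (the AP-1 site), a heat shock element of 3 alternating repeats, the kappa B site, and TATAAA. The windows lie at chr17:26508423-26508722 on the minus strand for Dusp1, chr12:55492598-55492897 on the minus strand for Nfkbia, chr7:28379179-28379478 on the minus strand for Zfp36, chr10:19015361-19015660 on the minus strand for Tnfaip3, and chr5:149636287-149636586 on the minus strand for Hsph1.
Dusp1: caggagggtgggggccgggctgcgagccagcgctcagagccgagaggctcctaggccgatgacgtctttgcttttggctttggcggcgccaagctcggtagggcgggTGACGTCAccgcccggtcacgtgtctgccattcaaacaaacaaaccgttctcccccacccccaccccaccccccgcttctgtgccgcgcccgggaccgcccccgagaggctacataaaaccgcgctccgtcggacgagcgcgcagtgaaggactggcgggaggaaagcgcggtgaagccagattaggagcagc
Nfkbia: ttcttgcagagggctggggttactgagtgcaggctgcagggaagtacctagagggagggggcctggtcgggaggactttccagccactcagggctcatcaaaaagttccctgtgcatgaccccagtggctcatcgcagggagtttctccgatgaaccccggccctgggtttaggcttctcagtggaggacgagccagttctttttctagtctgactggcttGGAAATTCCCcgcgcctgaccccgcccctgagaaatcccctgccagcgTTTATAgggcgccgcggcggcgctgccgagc
Zfp36: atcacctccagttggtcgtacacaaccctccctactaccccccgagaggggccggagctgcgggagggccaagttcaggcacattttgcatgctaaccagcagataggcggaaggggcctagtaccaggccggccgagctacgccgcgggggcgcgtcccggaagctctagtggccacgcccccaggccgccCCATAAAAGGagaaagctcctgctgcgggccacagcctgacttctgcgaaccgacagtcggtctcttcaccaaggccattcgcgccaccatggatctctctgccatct
Tnfaip3: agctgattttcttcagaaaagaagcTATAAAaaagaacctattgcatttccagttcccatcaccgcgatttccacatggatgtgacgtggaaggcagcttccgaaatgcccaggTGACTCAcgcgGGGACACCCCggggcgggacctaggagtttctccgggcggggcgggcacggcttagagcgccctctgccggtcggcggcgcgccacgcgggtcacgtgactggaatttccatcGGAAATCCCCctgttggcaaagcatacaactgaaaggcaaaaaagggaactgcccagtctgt
Hsph1: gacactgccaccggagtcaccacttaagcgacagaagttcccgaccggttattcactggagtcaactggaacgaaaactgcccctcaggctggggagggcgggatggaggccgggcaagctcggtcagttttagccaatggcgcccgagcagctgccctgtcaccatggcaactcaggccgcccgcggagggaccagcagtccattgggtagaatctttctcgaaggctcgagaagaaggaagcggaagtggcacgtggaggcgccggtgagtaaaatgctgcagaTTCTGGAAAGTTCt
The Dusp1 window holds TGACGTCA, the Nfkbia window a kappa B site and a TATAAA on the opposite strand, the Zfp36 window a CArG box, and the Tnfaip3 window TGACTCA, 2 kappa B sites and TATAAA. The Hsph1 window holds the heat shock element, on the opposite strand and after the transcript start.

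Over the 31 members with a window, a kappa B site was found in 11, against 9.55% of the 27025 genes of the RefSeq table. These were 2 of the 4 heat shock members and 9 of the 27 others, so the kappa B site did not divide the heat shock members from the others. TGACGTCA was found in 4 members (Dusp1, Btg2, Maff and Ppp1r15a), against 2.03% of genes. The CArG box was found in 2 (Zfp36 and Egr2), against 1.81% of genes, TATAAA in 8, against 15.7%, the AP-1 site in 1 (Tnfaip3), against 8.97%, and the heat shock element in 1 (Hsph1), against 0.662%. A match states only that these letters lie in the window, and genes with several start sites have several windows, which raises the chance of a match.

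The response was highest in microglia-gated, dendritic cell-gated, macrophage-gated and monocyte-gated cells and lowest in erythroid-gated and hepatocyte-gated cells. The 38 genes together made up 15381 CPM in 1793 microglia-gated cells (95% interval 15331 to 15431), 14108 CPM in 466 dendritic cell-gated cells, 13080 CPM in 5238 monocyte-gated cells and 12703 CPM in 9006 macrophage-gated cells (12684 to 12723). They made up 8376 CPM in 791 Kupffer-gated cells, 4327 CPM in 762 erythroid-gated cells and 2712 CPM in 96 hepatocyte-gated cells. Hspa8, which encodes the constitutive HSC70 chaperone, was a large part of every sum, with 2376 CPM in macrophage-gated and 3066 CPM in erythroid-gated cells. Without it the erythroid sum was 1262 CPM and the macrophage sum 10327 CPM.

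By library, the sum without Hspa8 in microglia-gated cells was 13680, 14428, 12384 and 11311 CPM for libraries 1 to 4, and in macrophage-gated cells it was 9854, 9950, 10809 and 10944 CPM. All 4 microglia values lay above all 4 macrophage values, although the libraries that were high in microglia were low in macrophages. Monocyte-gated cells gave 10020, 10260, 9435 and 8966 CPM, so they stood above macrophage-gated cells in libraries 1 and 2 and below them in libraries 3 and 4. Those classes do not differ beyond the spread of the libraries. Kupffer-gated cells, at 5473, 5001, 7289 and 6759 CPM, lay below all of the macrophage values.

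**Figure D1:**
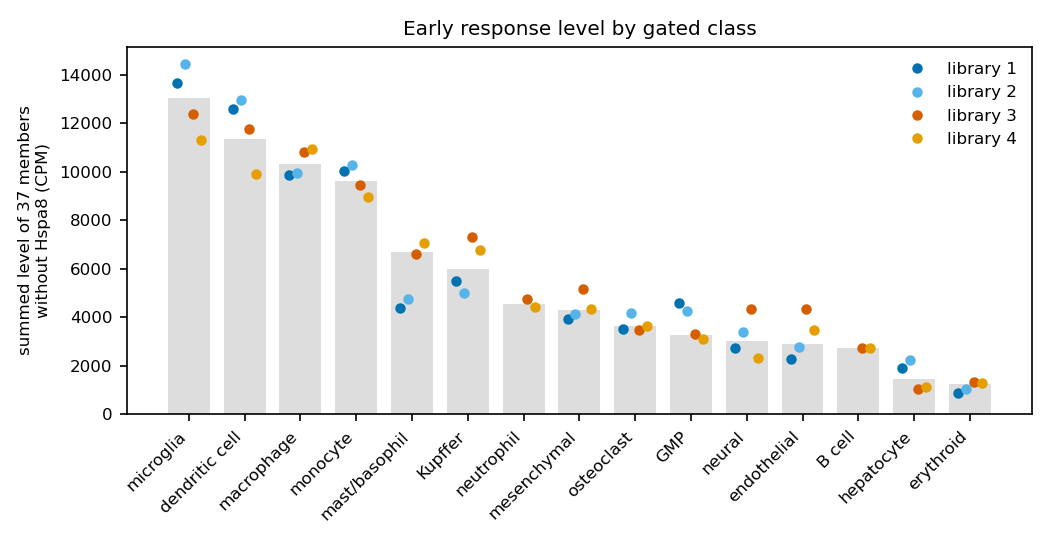
Summed level of the 37 genes other than Hspa8 in each gated class, in CPM. Grey bars pool the libraries and points are single libraries with at least 10 cells of the class. Microglia stand at 13026 CPM and erythroid cells at 1262 CPM.

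Single genes had different peak classes, by levels that pool libraries in unequal shares. Of the 38, dendritic cell-gated cells were highest for 12, microglia-gated cells for 9, mast cell or basophil-gated cells for 5 and monocyte-gated cells for 4, and macrophage-gated cells for 1, Klf6. Erythroid-gated cells were lowest for 22. The AP-1 genes summed to 5518 CPM in microglia-gated cells, 4381 in monocyte-gated, 4360 in macrophage-gated, 2351 in Kupffer-gated and 344 CPM in erythroid-gated cells. The heat shock genes were spread differently, with 3576 CPM in monocyte-gated, 3258 in erythroid-gated, 2491 in macrophage-gated and 2454 CPM in Kupffer-gated cells. Hspa8 alone made up 3448, 3066, 2376 and 2370 CPM of these sums, so their order is that of Hspa8.

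Among AP-1 members, Fos was led by monocyte-gated cells (2061 CPM), then macrophage-gated (1789 CPM) and microglia-gated cells (1699 CPM). Jun peaked in microglia-gated cells (1511 CPM) before macrophage-gated cells (1091 CPM), and Junb in dendritic cell-gated cells (1437 CPM) before microglia-gated cells (1383 CPM). Fosl2, the AP-1 subunit FRA2 with known roles in osteoclasts, departed from its family. It was highest in the 76 osteoclast-gated cells, at 116 CPM (102 to 132), with 99.1, 118, 138 and 113 CPM in libraries 1 to 4, against 13.4 CPM in macrophage-gated cells, where the libraries ran from 9.39 to 19.8 CPM. The libraries did not overlap between those classes, but 12 to 30 osteoclast-gated cells a library carry the value.

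Among the other transcription factors, Egr1 (444 CPM), Klf2 (252 CPM) and Egr2 (12.7 CPM) peaked in microglia-gated cells. Nr4a1, which encodes the orphan nuclear receptor NUR77, was highest in mast cell or basophil-gated cells (209 CPM), followed by dendritic cell-gated (193 CPM) and B cell-gated cells (190 CPM). That order was not the same in every library: in libraries 1 to 4 Nr4a1 was at 105, 80.8, 195 and 239 CPM in mast cell or basophil-gated and at 95.4, 153, 223 and 227 CPM in dendritic cell-gated cells, so each class was higher in 2 libraries. Of the feedback genes, Dusp1 was highest in monocyte-gated (666 CPM) and macrophage-gated cells (600 CPM; the libraries gave 557, 589, 614 and 653 CPM), whereas Btg1, Btg2, Zfp36, Socs3 and Gadd45b were highest in dendritic cell-gated cells. Zfp36 was level between dendritic cell-gated and microglia-gated cells, at 647 and 646 CPM. Nfkbia was highest in dendritic cell-gated cells, at 1145 CPM, and second in osteoclast-gated cells, at 856 CPM. Of the remaining members, Rhob was highest in microglia-gated cells (704 CPM) and next in macrophage-gated cells (347 CPM), and Apold1, an endothelial early response gene, was highest in B cell-gated (81.6 CPM) and endothelial-gated cells (70.0 CPM). The 171 B cell-gated cells came from libraries 3 and 4, with 86.2 and 78.6 CPM of Apold1, and in those libraries endothelial-gated cells were higher, at 89.9 and 96.9 CPM, against 60.2 and 59.9 CPM in libraries 1 and 2. The Poisson intervals of both classes overlap within libraries 3 and 4.

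**Figure D2:**
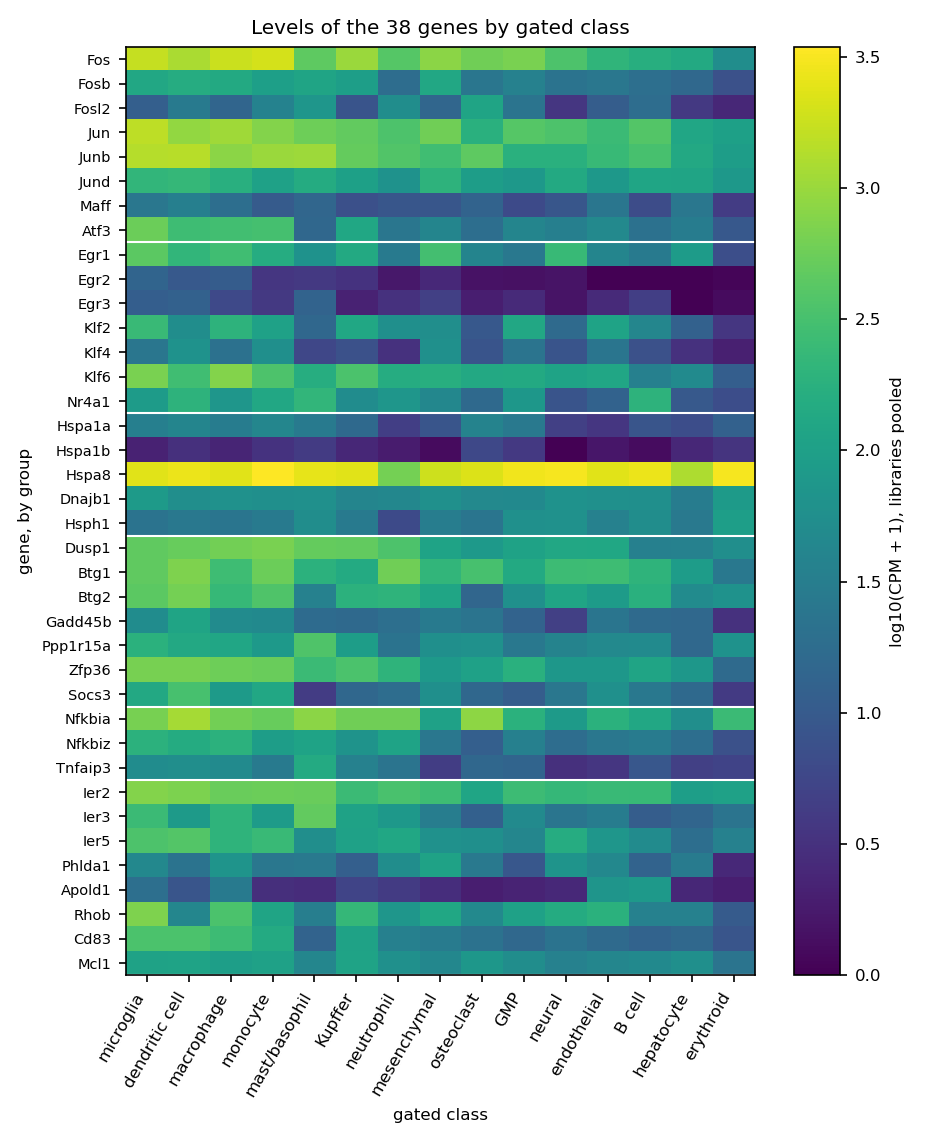
Pooled level of each of the 38 genes in each gated class as log10(CPM + 1), with genes ordered by role and white lines between the roles. The row of Hspa8 is bright in every class, while Fos and Jun fade from the myeloid classes on the left to the erythroid class on the right.

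Between pairs of classes, macrophage-gated cells had 5 of the 38 genes at least 2-fold higher than monocyte-gated cells, where 3.43% of 12308 features were that much higher, and 1 at least 2-fold lower, where 2.09% were. The higher genes were Rhob (347 against 114 CPM), Klf6 (754 against 357), Ier3 (199 against 85.1), Phlda1 (67.1 against 24.5) and Apold1 (26.6 against 1.99). Each was higher in 4 of 4 libraries. Klf4, a factor of monocyte differentiation, was the lower one at 19.6 against 56.7 CPM, a log2 difference of -1.17 (-1.43 to -0.89 over the libraries). The median log2 difference was 0.09 over the members and 0.04 over all features. With 4 markers required for a gate, 8 genes were higher and 3 lower.

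Against Kupffer-gated cells, macrophage-gated cells had 10 members at least 2-fold higher (1.69% of features) and 0 lower (1.83%). The largest differences were of Socs3, which encodes an inhibitor of cytokine signalling, at 83.1 against 14.1 CPM (log2 difference 1.95, 1.34 to 2.29 over the libraries), and of Phlda1, at 67.1 against 10.9 CPM (1.88, 1.46 to 2.11). Nfkbiz, Gadd45b, Cd83, Jun, Klf6, Atf3, Ier2 and Apold1 were the others, with Jun at 1091 against 480 CPM. The members' median difference was 0.71, against 0.03 over all features. Against microglia-gated cells, 0 members were higher in macrophage-gated cells (0.32% of features) and 0 lower (0.841%), and Rhob came nearest, at 347 against 704 CPM (log2 difference -0.998). Without library 4 the count of lower members was 3, and without library 3 it was 1.

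Monocyte-gated cells stood above granulocyte-monocyte progenitor-gated cells in 19 of the 38 genes (5.33% of features) and below in 0 (2.13%). Only libraries 3 and 4 had enough progenitor-gated cells for a value of their own. They held 306 and 540 of the 892 progenitor-gated cells, while monocyte-gated cells came from all libraries. The pooled values here therefore compare unlike shares of libraries, and Fos in monocyte-gated cells was lower in libraries 3 and 4 than in the others. Socs3 was at 132 against 10.2 CPM, Atf3 at 308 against 40.2 CPM, Dusp1 at 666 against 110 CPM, Junb at 1004 against 174 CPM and Fos at 2061 against 678 CPM. The members' median difference was 0.98, against -0.01 over all features. The heat shock genes were not among the 19, and Hspa8 stood at 3448 and 2891 CPM.

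Dendritic cell-gated cells had 6 members above monocyte-gated cells (2.05% of features), namely Socs3, Cd83, Gadd45b, Maff, Nfkbia and Jund, and 1 below (1.46%), Rhob. Jund reached 2-fold in the pooled values alone (log2 difference 1.03), which join libraries in unequal shares. Over the libraries its difference ran from 0.73 to 0.89, short of 2-fold in each. Cd83, a surface marker of mature dendritic cells, was at 341 against 143 CPM. Rhob was at 41.3 against 114 CPM.

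Mast cell or basophil-gated cells had their own order. Compared with macrophage-gated cells they had 16 members at least 2-fold lower (8.6% of features) and 5 higher (4.62%). Atf3 was at 14.1 against 291 CPM, Cd83 at 12.5 against 266 CPM, Rhob at 31.7 against 347 CPM and Klf2 at 14.1 against 192 CPM. The 5 higher genes were Fosl2 (71.4 against 13.4 CPM), Ppp1r15a (361 against 122), Nr4a1 (209 against 70.5), Tnfaip3 (145 against 48.6) and Ier3 (484 against 199). Ppp1r15a encodes a phosphatase subunit that reverses translational arrest and Tnfaip3 the ubiquitin-editing inhibitor A20. Of the 1553 cells, 584 and 863 came from libraries 3 and 4, and with each library weighted equally 3 members were higher. Across these pairs the median of all abundant features was itself shifted by 0.16 here and by -0.20 between macrophage-gated and mesenchymal-gated cells.

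In mesenchymal-gated cells, which are outside the myeloid lineage, 17 members were at least 2-fold lower than in macrophage-gated cells (7.56% of features were higher in macrophages) and 1, Klf4, was higher (13.4%). Cd83 stood at 28.6 against 266 CPM, Zfp36 at 80.2 against 566 CPM and Nfkbia at 106 against 616 CPM. Egr1, Fosb and Jund did not follow, with Egr1 at 301 CPM in mesenchymal-gated and 280 CPM in macrophage-gated cells. In the osteoclast-gated cells 21 members were at least 2-fold lower than in macrophage-gated cells (7.49% of features were higher in macrophages) and 1, Fosl2, was higher (4.17%). Klf2 was at 8.36 against 192 CPM and Atf3 at 18.2 against 291 CPM. Nfkbia did not follow, at 856 against 616 CPM. Library 4 alone held the 30 osteoclast-gated cells required for a difference by library.

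Within a class, the genes were unevenly shared between cells. After each cell was thinned to 5000 UMIs, the median macrophage-gated cell had 47 UMIs of the members other than Hspa8, with 13 at the 10th percentile and 108 at the 90th, in 8398 cells (608 were too shallow). Library medians were 47, 47, 47 and 49 UMIs. The 10% of cells with the most such UMIs held 24.95% of them in macrophage-gated cells, 21.1% in monocyte-gated cells and 32.3% in Kupffer-gated cells. The median was 62 UMIs in microglia-gated, 48 in monocyte-gated and 19 in Kupffer-gated cells. Macrophage-gated cells with at least 108 such UMIs made up 7.85% of cells in library 1 (exact binomial 95% interval 6.86 to 8.93), 8.45% in library 2, 13.0% in library 3 (11.3 to 14.9) and 12.9% in library 4. The intervals of libraries 1 and 2 overlap, as do those of 3 and 4, and the pairs do not overlap. They cover counting error alone.

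To see which members are high in the same cells, macrophage-gated cells of each library were ranked by the summed UMIs of the other 37 members, and the level of the gene left out was compared between the top and the bottom 20% of cells. Of the 38 genes, 31 were at least 1.5-fold higher in the top cells in each of the 4 libraries, where 1.07% of 11624 features were, and 29 were at least 2-fold higher in each (0.585%). The median log2 difference was 2.39 over the members and -0.04 over all other features. The 2 ends held 1678 cells each, and between 74 and 180 cells a library lay within 5 UMIs of the upper limit, so the ends are ranges of a continuum and not cell types.

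By role, the median log2 difference was 3.15 for the 3 NF-kB regulators, 2.88 for the 7 feedback genes, 2.42 for the 8 AP-1 genes and 0.03 for the 5 heat shock genes. The heat shock median is the value of Hspa1b, at 1.19 against 0.95 CPM, too low to show a difference on this scale. The 5 heat shock genes ran from -0.27 for Hsph1 to 0.74 for Dnajb1. Dusp1 was at 1359 CPM in the top and 115 CPM in the bottom cells, a log2 difference of 3.45 (3.26 to 3.90 over the libraries). Nr4a1 was at 175 against 7.51 CPM (3.40, 2.62 to 3.89), Junb at 1998 against 181 CPM (3.40, 2.99 to 3.85), and Atf3, a stress-induced repressor, at 675 against 60.1 CPM (3.29). Fos was at 3694 against 495 CPM (2.87), with 2.95, 3.05, 2.83 and 2.59 in libraries 1 to 4. All 3 NF-kB regulators were among the 31, with Nfkbia at 1363 against 138 CPM (3.21), Nfkbiz at 456 against 42.4 CPM (3.15) and Tnfaip3 at 120 against 7.99 CPM (2.85). The weakest of the 31 were Btg1 (1.44), Mcl1 (1.22) and Fosl2 (1.14).

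The 5 heat shock genes were not among the 31. The other members not counted, Apold1 (58.9 against 3.10 CPM, 2.39) and Egr3 (9.42 against 0.954 CPM, 0.83), were higher in the top cells of each library but fell short of 1.5-fold in the lowest one, at 0.47 and 0.49, on a scale that understates low genes. Hspa8 was at 2155 CPM in the top and 2349 CPM in the bottom cells (log2 difference -0.12, -0.20 to -0.02 over the libraries), and Hsph1, which encodes HSP110, at 16.8 against 22.3 CPM (-0.27). Dnajb1, an HSP40 cochaperone, was higher in the top cells of all 4 libraries, at 82.1 against 45.3 CPM, but by less than 1.5-fold in library 4 (0.53). Hspa1a, the inducible HSP70, turned with the library: it was at 40.2 against 4.47 CPM in library 1 and 28.2 against 13.2 CPM in library 2, and at 9.32 against 23.7 CPM in library 3 and 29.9 against 60.8 CPM in library 4. Its log2 differences were 1.80, 0.72, -0.80 and -0.83. Hspa1a and Hspa1b are near-identical copies whose reads the counting may have split, so the low level of Hspa1b, at 1.19 against 0.95 CPM, is uncertain.

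**Figure D3:**
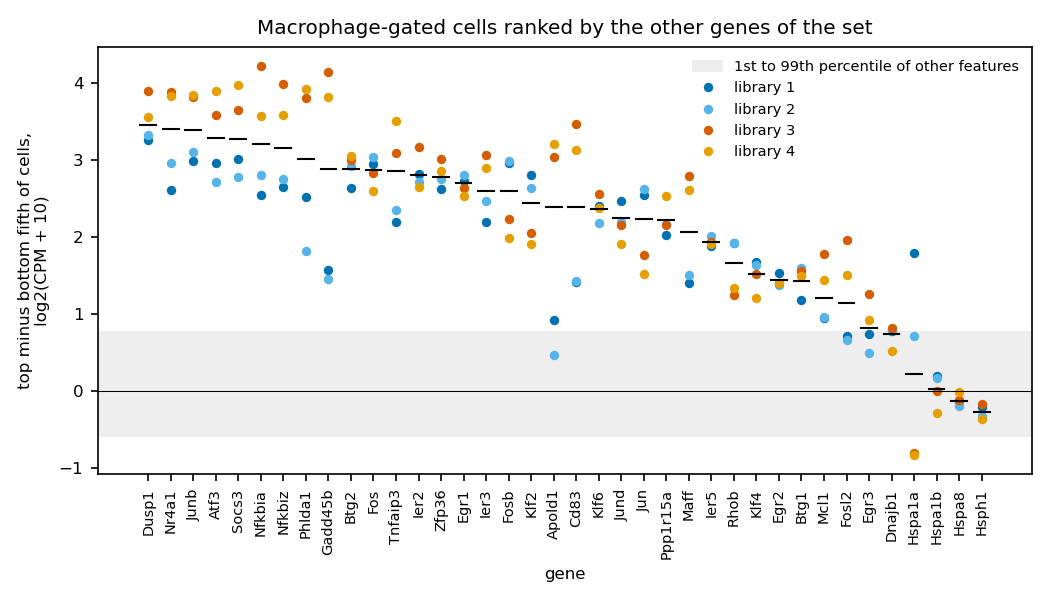
Difference of each gene between the top and the bottom 20% of macrophage-gated cells, ranked within each library by the other genes of the set, on the log2(CPM + 10) scale. Points are libraries, black bars pool them, and the grey band spans the 1st to the 99th percentile of all other features. Dusp1 stands at 3.45 on the left and Hsph1 at -0.27 on the right, and the library points of Hspa1a lie on both sides of 0.

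Ranking the cells by 1 role at a time gave a similar division. With cells ranked by the AP-1 genes, the median difference was 2.76 for the feedback genes, 2.84 for the NF-kB regulators, 2.30 for the EGR, KLF and nuclear receptor factors and -0.02 for the heat shock genes. With cells ranked by the heat shock genes, the medians of the other roles lay between -0.28 and -0.11. The heat shock genes ranked by each other reached a median of 0.33, led by Hspa1a (1.12) and Hsph1 (0.82). In this ranking Hspa8 carries most of the UMIs.

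For some members the difference between the ends, or the rank correlation with the other members, changed with the library. Apold1 differed by 0.93 and 0.47 between the ends in libraries 1 and 2, and by 3.05 and 3.21 in libraries 3 and 4. Apold1 was at a few CPM in libraries 1 and 2, where this scale understates a difference, so its level and its tie to the rest cannot be told apart. Cd83 was at 324 against 115 CPM in library 1 (1.42) and 1021 against 83.2 CPM in library 3 (3.47), with 1.43 in library 2 and 3.13 in library 4. Jun went the other way, with 2.54, 2.62, 1.77 and 1.52. Across cells of a library, the Spearman rank correlation between Jun and the summed other members was 0.58, 0.60, 0.39 and 0.31 over 2687, 2271, 1397 and 2043 cells, which share a library and a depth, whereas that of Junb was 0.60, 0.62, 0.74 and 0.74. It was 0.24, 0.25, 0.45 and 0.46 for Nr4a1, 0.16, 0.13, 0.44 and 0.43 for Gadd45b and 0.47, 0.52, 0.67 and 0.65 for Nfkbia. Nr4a1 and Gadd45b were also lower in libraries 1 and 2, and few UMIs a cell limit a rank correlation, so level and tie cannot be told apart. These are descriptions of cells, not tests.

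The ends differed in depth. The top cells had a median of 11698 UMIs before thinning and the bottom cells 14066, the median mitochondrial share was 2.60% and 2.71%, and the median ribosomal share 17.4% and 18.9%. The part of depth in the pattern beyond thinning was not tested. Of the markers of all 16 gated types, including megakaryocytes, 0 of those with enough UMIs differed by 1.5-fold in each library. Of all features, 1.07% were higher and 0.327% lower in the top cells. Only 2 of 6 markers had enough UMIs for B cells and for megakaryocytes, and 3 of 6 for osteoclasts. The class leaves out cells that passed other gates, which holds the markers of other types low by design. The summed macrophage markers were at 6758 and 5531 CPM in the top and bottom cells.

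The same ranking in other classes placed the heat shock genes apart again, with exceptions. In monocyte-gated cells 27 of 38 members were higher in the top cells of each library (1.52% of features), led by Socs3 at 396 against 34.6 CPM (3.19), and Fos differed by 1.54. Hsph1, at 16.1 against 34.99 CPM (-0.78), was the 1 member at least 1.5-fold lower in the top cells of each library (0.512%). In microglia-gated cells 31 of the 37 members with enough UMIs were higher (2.01%), led by Ier2 at 1949 against 130 CPM (3.81). Dnajb1 reached 361 against 30.9 CPM in library 1 of the microglia-gated cells and 53.3 against 44.4 CPM in library 3, where 45 cells made up each end. In Kupffer-gated cells 26 of 31 were higher in each of 3 libraries (4.28%), with Dusp1 at 1219 against 37.2 CPM (4.70) and Fos at 2612 against 136 CPM (4.16). Hspa1a was among them, at 17.7 CPM in the top and 0 CPM in the bottom cells, which is 10 and 0 UMIs. Unlike the other classes, the top Kupffer-gated cells were deeper than the bottom ones, with medians of 16083 and 10658 UMIs, and only 113 cells made up each end.

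Genes outside the set were examined from lists of related pathways. Of 13 chemokines and cytokines, 11 were at least 1.5-fold higher in the top macrophage-gated cells of each library, and their sum was 8816 against 1481 CPM. Cxcl2, a neutrophil-attracting chemokine, was at 2139 against 84.1 CPM (4.51, 3.32 to 5.51), Il1b at 239 against 6.67 CPM (3.90), Ccl4 at 1219 against 176 CPM (2.73), Ccl3 at 1465 against 287 CPM (2.31), Ccl2 at 1497 against 312 CPM (2.23) and Ccl12 at 1070 against 395 CPM (1.42). Of 15 other early response genes with enough UMIs, 7 were higher, among them Pim1 (557 against 64.2 CPM), Csrnp1, Gem, Id2, Zfp36l1, Irf1 and Cebpb, while Sat1 was level at 778 against 817 CPM. Of 11 NF-kB factors and targets, 3 were higher (Rel, Icam1 and Birc3), and Sod2 was at 114 against 99.2 CPM.

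The other chaperones and stress pathways held no gene past 1.5-fold in every library. Of 12 further chaperones 0 passed in either direction, with Hsp90ab1 at 1075 against 1353 CPM, Hspa5 at 901 against 781 CPM, Hspe1 at 359 against 491 CPM and Hsp90aa1 at 355 against 432 CPM. The same held for the 6 integrated stress response genes with enough UMIs, with Atf4 at 96.2 against 77.5 CPM and Ddit3 at 24.2 against 12.4 CPM, and for 8 ternary complex, CREB and heat shock factors, such as Hsf1 at 21.3 against 20.9 CPM. Of 10 proliferation genes 3 were at least 1.5-fold lower in the top cells of each library, where 0.327% of features were and 0 members: Birc5 (122 against 269 CPM), Ube2c (81.4 against 195 CPM) and Top2a (69.7 against 138 CPM). Beyond these lists, the features that differed most in the library where each differed least included Ccrl2 (297 against 18.1 CPM), Bmp2 (148 against 21.0 CPM), Cdkn1a (379 against 66.7 CPM), Rgs2 (646 against 147 CPM) and Neat1 (575 against 153 CPM) among the higher, and Fabp5 (139 against 369 CPM), Ccna2, Pclaf and Cks1b among the lower.

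Between libraries, macrophage-gated cells differed in a few members. For 9 of the 38 the highest library was at least 2-fold above the lowest, where 0.619% of features were. Without library 4 this held for 5. In 9 members libraries 3 and 4 were both at least 1.5-fold above both 1 and 2 (0.611% of features), and in 0 the reverse (0.0688%). Apold1 was at 4.66 and 4.23 CPM in libraries 1 and 2 and at 53.7 and 57.1 CPM in 3 and 4. Nr4a1 was at 38.3, 35.3, 97.1 and 126 CPM, Gadd45b at 26.4, 22.6, 76.1 and 88.5 CPM, and Cd83 at 165, 170, 359 and 419 CPM. These values leave a gap between the library pairs that is wider than the difference within either pair, which choosing genes by this order favours. In monocyte-gated cells 2 members had this order (0.428% of features), in microglia-gated cells 5 of 37 (0.571%) and in Kupffer-gated cells 6 of 31 (0.646%), and Cd83 was among them in each. Tnfaip3, Nfkbia, Phlda1, Maff and Hspa1a had the same order in macrophage-gated cells, with Nfkbia at 469, 484, 798 and 803 CPM. Nfkbiz, the remaining NF-kB regulator, did not reach the limit, at 163, 161, 222 and 225 CPM.

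Fos, Egr1 and Jun did not share that order. Fos was at 1844, 1877, 1685 and 1704 CPM, Jun at 1146, 1303, 1012 and 868 CPM, and Egr1 at 324, 312, 227 and 231 CPM in libraries 1 to 4, each lower in both of libraries 3 and 4. Egr1 was the member at least 1.5-fold higher in both of libraries 1 and 2 in monocyte-gated cells (0.149% of features) and in microglia-gated cells (0.143%). In monocyte-gated cells Egr1 was at 238, 225, 79.95 and 78.1 CPM and Fos at 2437, 2557, 1691 and 1597 CPM. Klf6, Ier2 and Rhob were flat in macrophage-gated cells, with the highest over the lowest library at 1.03, 1.04 and 1.04. Hspa1a in monocyte-gated cells was at 8.53, 9.91, 57.6 and 81.8 CPM.

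**Figure D4:**
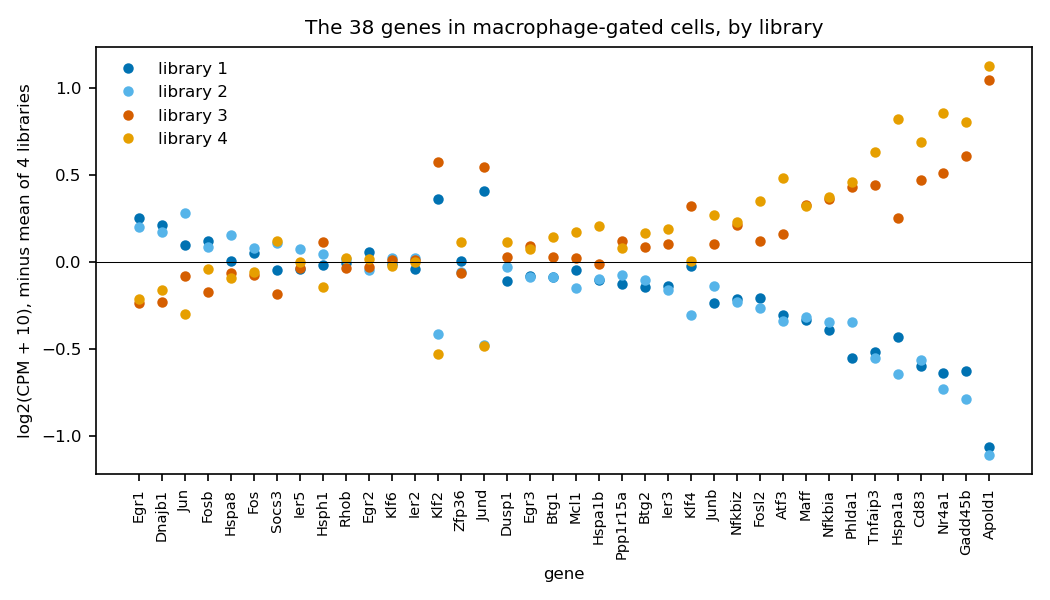
Each gene in macrophage-gated cells of each library, as log2(CPM + 10) minus the mean of the 4 libraries. Apold1, Gadd45b and Nr4a1 on the right separate libraries 3 and 4 from 1 and 2, while Jund and Klf2 separate libraries 1 and 3 from 2 and 4.

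Jund and Klf2 had an order of their own. Jund, the most constitutive JUN subunit, was at 220, 114, 243 and 113 CPM in macrophage-gated cells of libraries 1 to 4, and Klf2, a factor of quiescence, at 243, 138, 283 and 126 CPM. Both were high in libraries 1 and 3 and low in 2 and 4, and they were the 2 features of 11624 (0.0172%) with at least 1.5-fold between these pairs. Both had the same order in monocyte-gated cells (0.0279% of features), with Jund at 120, 60.8, 195 and 76.9 CPM. Both had it in Kupffer-gated cells (0.0264%), with Klf2 at 149, 78.8, 250.4 and 89.0 CPM, and in microglia-gated cells (0.0219%), with Jund at 276, 145, 347 and 140 CPM. Over macrophage-gated, monocyte-gated and microglia-gated cells together, they were again the 2 of 8997 features with this order in all 3 classes (0.0222%), and 0 had the opposite one. In mesenchymal-gated and dendritic cell-gated cells Jund alone reached 1.5-fold in this order. Neither gene did in mast cell or basophil-gated cells.

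The transcripts of both genes are rich in G and C: the longest GENCODE transcript of Jund has 67.1% GC, at the 99th percentile of the features tested, and that of Klf2 61.6%, at the 98th, against a median of 49.3%. Junb, with 62.6% GC, was at 721, 773, 915 and 1031 CPM, without the order of Jund and Klf2. The part of base composition in that order was not tested.

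**Figure D5:**
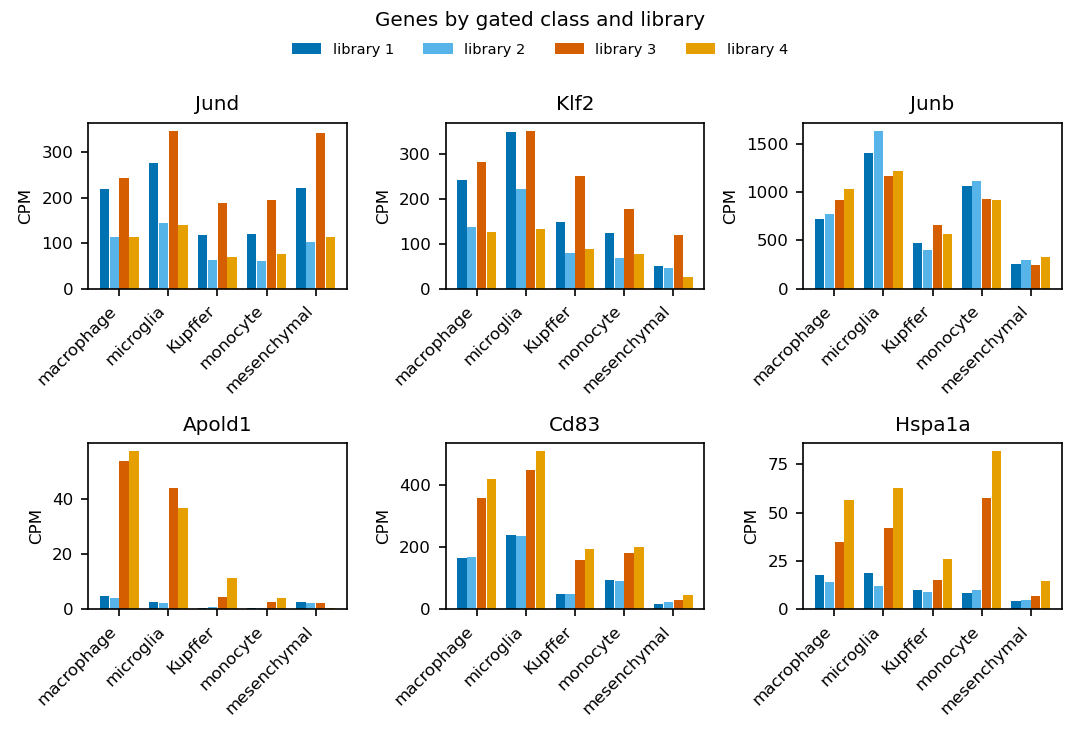
Levels of Jund, Klf2, Junb, Apold1, Cd83 and Hspa1a in CPM, by gated class and library (bars, 1 for each library). In the macrophage class Jund and Klf2 are high in libraries 1 and 3, and Apold1, Cd83 and Hspa1a in libraries 3 and 4. Junb in that class is also higher in libraries 3 and 4, but short of 1.5-fold.

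Other measures moved with libraries 3 and 4 in macrophage-gated cells. Xist was at 595, 592, 0 and 0.0600 CPM and the Y-linked Ddx3y at 17.3, 15.4, 46.8 and 49.5 CPM. The mast cell gene Cpa3 was at 3.33, 3.78, 23.6 and 27.3 CPM, against 10230 CPM in its own class, and the neutrophil gene Ngp at 0.563, 0.332, 18.3 and 21.1 CPM. Mast cell or basophil-gated, neutrophil-gated and progenitor-gated cells came almost wholly from libraries 3 and 4. In macrophage-gated cells without a UMI of Cpa3, Cma1, Mpo or Ngp, Apold1 was at 4.92, 4.70, 51.7 and 60.1 CPM and Cd83 at 166, 175, 359 and 474 CPM. In macrophage-gated cells with a Y-linked UMI and none of Xist, Apold1 was at 4.08, 5.04, 55.1 and 58.7 CPM and Nr4a1 at 42.1, 56.8, 102 and 127 CPM. Between the library pairs Nr4a1 then stepped from 56.8 to 102 CPM, against 38.3 to 97.1 CPM in all macrophage-gated cells. Jund in those cells was at 236, 127, 238 and 114 CPM. The subsets were chosen after the data were seen, and the part of free RNA and of embryo sex in the library differences was not tested. Genotype, embryo, litter and preparation cannot be told apart between the libraries.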

How the data were processed

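The deposited counts are numbers of UMIs for each gene in each barcode. Cell Ranger 3.0.1 wrote them, per the file headers, although version 2.1.1 and mm10 stand in the submitters' processing notes. Kept cells had at least 1000 UMIs and 500 genes and at most 10% mitochondrial UMIs, which removed 4461 of 39048 barcodes. A cell joined a class when at least 3 of its 6 markers had at least 2 UMIs each. Cells passing several gates were left out, except that microglia and Kupffer gates took precedence over the macrophage gate. No doublet caller was run, so doublets of like cells remain.

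Counts were summed per class and library and turned into CPM (Python 3.11.15, NumPy 2.4.6, SciPy 1.17.1, pandas 2.3.3). Features with at least 100 UMIs in a comparison entered it. For ranks within a class, cells were thinned to 5000 UMIs, and libraries with at least 100 cells were used. The steps were tested on simulated data. The planned count-model comparisons between labelled groups were not run, because barcode numbers match no label. Replicates of a group could therefore not be told apart, and no p-value is given.

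The text names all members, the 4 most abundant genes and those counted as different in each pathway list, and the 10 highest and 5 lowest other features of at least 50 CPM, by their smallest difference over the libraries, leaving out ribosomal, mitochondrial and predicted genes. Some genes counted as different in a list are named without values. The members and lists were chosen with earlier results of these data known.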

Additional observations from a re-analysis of the deposited data

Results flagged for a closer look

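Hsph1 had another sign in Kupffer-gated cells, on few counts: 14 UMIs in the 113 top and 9 in the 113 bottom cells. Its difference between the top and the bottom 20% of cells was positive in each of the 3 Kupffer libraries with enough cells, and negative in all 4 libraries of macrophage-gated and of monocyte-gated cells. The lowest Kupffer library lay 0.43 (log2) above the highest macrophage library and 0.85 above the highest monocyte library. In microglia-gated cells the libraries went both ways, from -0.68 to 1.09. The difference between classes was not tested.

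The removed barcodes, which enter no comparison, carried the genes as well. The 38 genes summed to 7693 CPM in the 2756 barcodes under the UMI minimum, and to 8121 CPM in the 1242 barcodes over the mitochondrial maximum that had enough UMIs and genes. The kept cells stood at 10737 CPM.

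Among the 44 sets of 4 library values examined, 0 had a library whose gap to its neighbour passed Dixon's 95% critical value.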

How the results depend on the processing

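No paired analysis was possible because the barcode numbers carry no replicate numbers of the labels. Of 237 alternative values of counts and summed levels, 218 stayed within the limits set and 19 moved. Among single genes 1201 alternative values stayed and 205 moved. Members higher in macrophage-gated than monocyte-gated cells numbered 8 with 1 more marker required in place of 5, and lower ones 3 in place of 1, as with a pseudocount of 1, or 2 with gates on thinned cells. Members lower in macrophage-gated than microglia-gated cells, 0 as reported, numbered 5 with the stricter gate, 1 with the stricter cell filter, with pseudocount 1 or centred on the median of all features, and 2 with gates on thinned cells. Lower members were 1 in place of 0 for monocyte-gated against progenitor-gated cells with pseudocount 1, 0 in place of 1 for macrophage-gated against mesenchymal-gated cells after centring, and 2 in place of 1 for dendritic cell-gated against monocyte-gated cells with libraries weighted equally. Members higher in mast cell or basophil-gated than macrophage-gated cells were 3 with that weighting. With each library left out in turn, the members differing between libraries numbered 5 to 9, those moving with the others 31 to 33, those lower in macrophage-gated than monocyte-gated cells 1 to 2, those lower than in microglia-gated cells 0 to 3, and those lower in dendritic cell-gated than monocyte-gated cells 1 to 2. The causes were not tested. The gates on thinned cells, the cell subsets, and rankings by the number of other members or without the heat shock genes were added after seeing the data. Depth limits genes of a few CPM, such as Egr3 and Hspa1b.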
